A study of Mus musculus with 28 samples.

Results

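Kinesins are motor proteins that use ATP to move along microtubules or to shorten their ends. Through dividing germ cells and spermatids they build spindles and midzones, carry membranous cargo and supply the flagellum. H3K27ac is the acetylation of lysine 27 on histone H3, a mark of active promoters and enhancers. The kinesin genes are described here by every H3K27ac peak whose gene annotation held, alone or in a list, a symbol made of Kif or Kifc and a digit. That gave 1270 of 471458 peaks (0.269%) over 12 libraries, 491 of them at promoters and 779 elsewhere. The peaks named 41 symbols, 40 without the pseudogene Kif4-ps, of 46 such symbols in a RefSeq gene table. The other 5 (Kif12, Kif28, Kif16bos, Kif22-ps and Kifc5c-ps) had no peak, and 187 of the 1270 peaks named a neighbouring gene as well.

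The mark was profiled by ChIPmentation, in which a transposase adds sequencing adapters to immunoprecipitated chromatin, in testis germ cells of C57BL/6 mice. Thy1+ spermatogonia and c-Kit+ spermatogonia came from postnatal day 7, each from wild type (WT) animals and animals lacking Scml2, a germline Polycomb protein (Scml2-KO, here KO). Pachytene spermatocytes (PS) and round spermatids (RS) came from adult Scml2-KO animals, so every comparison with these stages lies within the KO, and wild type H3K27ac at these stages was not analysed here. Each of the 6 groups had 2 libraries, and 16 inputs were deposited beside them. The labels do not say whether replicates came from separate animals, so p-values measure the spread between these libraries. In bulk chromatin, a change in the share of cells with the mark and a change per cell cannot be told apart. Cells were sorted magnetically or by sedimentation.

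The libraries differed in more than stage. Read depth is not given in the tables, and the background height that the deposited fold enrichments imply, a relative indicator of it, was 0.564 to 1.11 in spermatogonia and 0.849 to 1.62 in adult cells, and replicate 1 was the higher in every group. The inputs held 13 kinesin peaks in 8 of 16 libraries, none at a promoter. Promoters of 5 of 5 round spermatid markers and 5 of 5 spermatocyte markers were called in all 4 adult libraries, so these lists did not separate PS from RS; in spermatogonia the counts were 0 to 1 and 1 to 4. Spermatogonial markers had 0 to 5 of 6 promoters called in spermatogonia, the 0 being Thy1+ KO 2, and 3 to 5 in adult cells. Of 17 markers of somatic testis cells, 3 to 9 were called in spermatogonia and 8 to 11 in adult cells. Summed fold enrichment of the Sertoli list was 9.59 to 27.4 in spermatogonia and 13.5 to 59.2 in adult cells. The peritubular list went the other way, at 0 to 17.7 and 0 to 4.80. The Leydig, macrophage and endothelial lists reached 10.4, 5.57 and 8.61 in spermatogonia and 20.3, 24.3 and 16.5 in adult cells. Rhox5, Cyp17a1, Hsd3b1 and Adgre1 had no promoter peak in any library. The part of these differences in the results below was not tested. An Scml2 promoter peak was called in 4 libraries, all KO; the extent of the deletion is not given, so this checks no label.

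The promoters that carry the main findings are shown first, from RefSeq (GRCm38.p6, 250 bases before to 50 after a start, 5′ to 3′ along the gene), with every motif searched in capitals. They are Kif21a (chr15:91049902-91050201, minus strand), which was highest in PS and low in RS; Kif3b (chr2:153291166-153291465, plus strand), with the largest rise in adult cells; Kif2b (chr11:91577506-91577805, minus strand), called in adult cells only; Kif24 (chr4:41464799-41465098, minus strand), which rose in adult cells; and Kif2c (chr4:117178723-117179022, minus strand), whose RefSeq window lies downstream of the start listed in the peak tables.
Kif21a: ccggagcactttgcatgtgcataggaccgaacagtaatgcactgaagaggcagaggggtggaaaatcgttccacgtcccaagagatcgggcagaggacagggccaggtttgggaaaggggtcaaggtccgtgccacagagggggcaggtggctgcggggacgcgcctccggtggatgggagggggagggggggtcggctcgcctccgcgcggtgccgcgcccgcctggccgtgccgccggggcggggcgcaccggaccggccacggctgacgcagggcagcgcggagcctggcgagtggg
Kif3b: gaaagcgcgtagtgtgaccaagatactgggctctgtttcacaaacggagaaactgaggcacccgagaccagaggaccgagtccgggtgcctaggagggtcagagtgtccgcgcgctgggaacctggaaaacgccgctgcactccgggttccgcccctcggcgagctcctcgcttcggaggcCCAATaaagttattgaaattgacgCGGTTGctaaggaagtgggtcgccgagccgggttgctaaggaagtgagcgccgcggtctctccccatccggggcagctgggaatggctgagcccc
Kif2b: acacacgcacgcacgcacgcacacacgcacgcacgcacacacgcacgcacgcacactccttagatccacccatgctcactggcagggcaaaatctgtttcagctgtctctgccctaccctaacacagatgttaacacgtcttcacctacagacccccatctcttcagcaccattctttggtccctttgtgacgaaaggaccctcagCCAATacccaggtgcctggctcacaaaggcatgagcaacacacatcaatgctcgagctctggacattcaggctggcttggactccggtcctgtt
Kif24: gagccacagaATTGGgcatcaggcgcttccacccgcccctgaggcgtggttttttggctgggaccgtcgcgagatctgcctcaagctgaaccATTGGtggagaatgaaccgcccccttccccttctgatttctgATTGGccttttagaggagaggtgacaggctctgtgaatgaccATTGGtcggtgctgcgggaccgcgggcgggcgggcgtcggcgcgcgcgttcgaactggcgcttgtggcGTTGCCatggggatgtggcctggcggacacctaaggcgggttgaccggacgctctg
Kif2c: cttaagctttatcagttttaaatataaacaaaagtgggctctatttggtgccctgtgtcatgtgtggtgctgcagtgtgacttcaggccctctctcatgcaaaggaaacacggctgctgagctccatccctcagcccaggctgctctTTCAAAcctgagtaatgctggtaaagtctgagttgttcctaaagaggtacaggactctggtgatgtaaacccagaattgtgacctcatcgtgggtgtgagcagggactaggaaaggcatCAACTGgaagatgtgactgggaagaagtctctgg

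The motifs, each searched on both strands, were CCAAT (bound by NF-Y), TTTGAA (cell cycle homology region), TGACGTCA (CRE), CNGTTG (MYB), GTTGCC (RFX) and TTTCGCGC (E2F); CNGTTG and GTTGCC can overlap by 4 letters, and did in none of the windows printed. RefSeq windows were found for 32 of the 41 symbols, 36 windows in all, but not for Kif4-ps, Kif5a, Kif5b, Kif13b, Kif19a, Kif20a, Kif21b, Kifc2 and Kifc3. The Kif24 window held 4 CCAAT boxes, all on the reverse strand, and 1 GTTGCC, whereas the Kif21a window held none of the motifs. TTTGAA was present in 38.9% of kinesin windows against 17.9% of all 32851, GTTGCC in 30.6% against 12.5%, TGACGTCA in 8.33% against 1.79%, CCAAT in 47.2% against 37.4%, CNGTTG in 44.4% against 35.0% and TTTCGCGC in 0 of 36 against 0.323%. The 14 genes with TTTGAA were Kif1a, Kif2c, Kif4, Kif11, Kif14, Kif15, Kif18b, Kif20b, Kif22, Kif23, Kif26b, Kif27, Kifc1 and Kifc5b. They include spindle, transport and signalling motors, and a difference between roles was not tested. Kinesin windows were also rich in CG pairs, with a median of 26.0 against 7.00 for all windows, and some windows of one gene overlap.

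Peaks overlapped most windows with over 10 CG pairs, among the kinesins and genome-wide. Of all 8947 windows with 4 to 10 pairs, 20.2% touched a peak in at least 1 spermatogonial library and 37.4% in at least 1 adult library. No kinesin window fell in that class. Of 32 kinesin windows with over 10 CG pairs, 30 (93.8%) touched a peak in at least 1 spermatogonial library, beside 82.7% of all 13594 such windows. The 4 kinesin windows with 3 or fewer (Kif14, Kif27, Kif2c and an internal start of Kif1a) touched none, beside 3.67% of 10310 such windows that did; these limits were chosen after the values were seen. Kif2c, a microtubule depolymerase of the kinesin-13 family, had its window under a peak in 3 of 4 adult libraries; in adult cells 1 of these 4 windows touched a peak, beside 18.2% of all such windows. That window belongs to an exonic region described with the RS results.

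Promoter peaks were found for 40 of the 41 symbols. In 21 (52.5%) they were called in every library, beside 58.9% of 15868 genes with any promoter peak. In 35 they were called in all 4 adult libraries. No share over all genes is given for this adult count or for those by role below, so none is read as a kinesin trait. Fold enrichment here is a peak's height over the library's background as the authors' peak caller gave it. The 3 strongest of the constant promoters, by the mean of the 6 groups, were Kif1b, a vesicle and mitochondrion transporter (22.2-fold enrichment), Kif5b, the widely expressed heavy chain of conventional kinesin (19.9), and Kif15, a spindle motor whose promoter is also named for 1110059G10Rik (19.5). Kif1b ran from 14.3 ± 1.22 in c-Kit+ KO to 35.7 ± 2.30 in PS (SD, n = 2). Kif5b was 14.2 ± 6.03 and 27.9 ± 1.21 in the same groups. Kif15 was 14.6 ± 4.13 and 26.4 ± 1.16. In each of the 3 genes both PS libraries lay above both c-Kit+ KO libraries before centring, and none of the 3 passed the centred test described below.

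**Figure D1:**
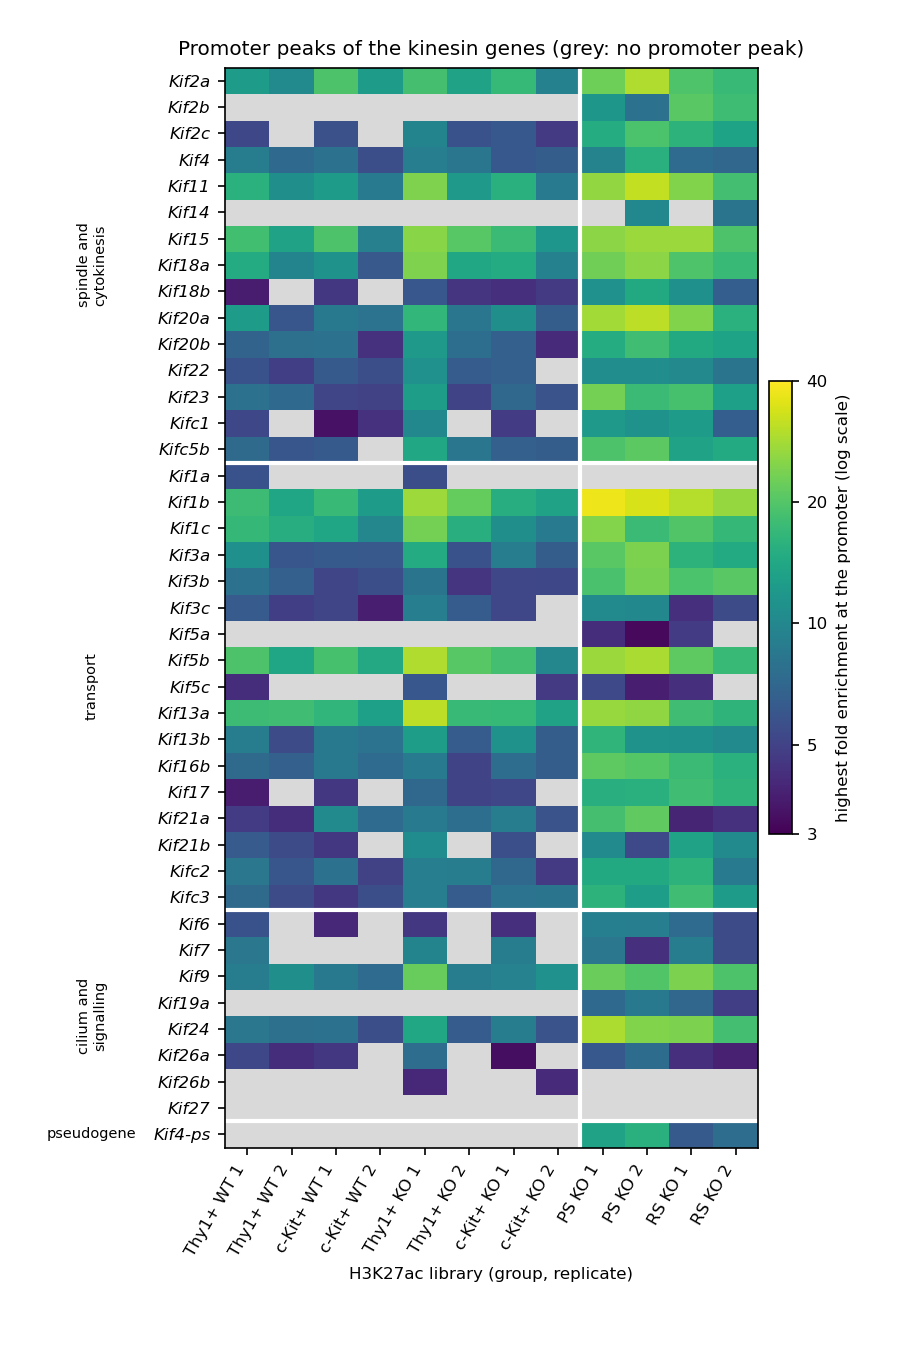
Highest fold enrichment among promoter peaks of each kinesin gene (rows, grouped by role) in each of the 12 H3K27ac libraries (columns), on a log colour scale; grey marks no promoter peak. Kif2b, Kif19a and Kif4-ps are grey in all 8 spermatogonial libraries and coloured in all 4 adult libraries, and the Kif21a row is brightest in PS (18.7 and 21.3) and dark in RS (3.91 and 4.33).

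By role, the transport motors had 11 of 17 promoters called in every library and 14 in all adult libraries. Among spindle and cytokinesis motors the counts were 8 and 14 of 15, and among cilium, flagellum and signalling motors 2 and 6 of the 8 with a peak. Only Kif9, a motor of the sperm flagellum, and Kif24, a centriolar depolymerase that restrains cilium assembly, were called throughout in the last group. Another 11 genes (Kif2c, Kif3c, Kif6, Kif7, Kif17, Kif18b, Kif21b, Kif22, Kif26a, Kifc1 and Kifc5b) were called in all adult libraries and in some spermatogonial ones. In all 11, more spermatogonial calls came from replicate 1 than from replicate 2, and 10 were called in all 4 spermatogonial replicate 1 libraries; replicate 1 had the higher background height. For Kif22, Kif26a, Kifc1 and Kifc5b, the region at the listed start was called only in libraries with a promoter-class peak. At Kif7, the merged region that holds the promoter peak was also called in all 5 libraries without such a peak (4.66 to 7.84). A missing call therefore does not show that the mark is absent.

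Kif2b, Kif19a and Kif4-ps were the genes with a promoter peak in all 4 adult and none of the 4 spermatogonial KO libraries (7.50% of 40, beside a background of 7.16%). They had none in the 4 WT spermatogonial libraries either. The reverse pattern was seen for none (background 0.113%). Kif2b, a kinesin-13 depolymerase of the spindle, had fold enrichments of 11.8 and 8.00 in PS and 20.7 and 17.9 in RS. Kif19a, which shortens microtubules at ciliary tips, had 7.24 and 8.53 in PS and 7.04 and 4.87 in RS. The pseudogene had 13.3 and 15.5 in PS and 6.26 and 7.57 in RS, so Kif2b was higher and Kif4-ps lower in RS with no overlap, whereas Kif19a overlapped. The sequence of Kif4-ps resembles Kif4, and whether shared reads were separated is not given in the sources used here. Only Kif2b kept the pattern when each library was cut to its 17877 strongest peaks. With a −log10 q of at least 5, Kif2b and Kif4-ps kept it, Kif19a lost it and Kif6 gained it, beside 946 of 14621 genes.

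A few promoters, chosen after their values were seen, were called in fewer libraries. Kif5a, a heavy chain best known from neurons, was called in 3 of 4 adult libraries (4.19, 3.20 and 4.69) and in no spermatogonial one. Kif14, a cytokinesis motor, had peaks of the promoter class in PS 2 (10.1) and RS 2 (8.11) only, but peaks of the upstream class in the same region (chr1:136465758-136467150) in PS 1 (9.91), RS 1 (7.43) and 5 spermatogonial libraries (5.20 to 8.61), so there the class label differed rather than the presence of a peak. Kif1a, an axonal vesicle motor, had promoter peaks in Thy1+ WT 1 (5.76) and Thy1+ KO 1 (5.57) and in no adult library, and Kif26b was called in Thy1+ KO 1 (4.05) and c-Kit+ KO 2 (4.08). Kif27, a motor related to the Hedgehog regulator Kif7 and linked to motile cilia, had no peak of the promoter class. It had instead a region at chr13:58357826-58359972, upstream of its listed start at 58354862, that was called in all 12 libraries.

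Outside promoters, the number of kinesin peaks differed more between stages. Spermatogonial libraries held 30 to 45 promoter and 9 to 62 other kinesin peaks, and adult libraries 45 to 48 and 120 to 162. All peaks were also more numerous, with 17877 to 36362 per spermatogonial and 63322 to 73316 per adult library, and kinesin peaks made up 0.226 to 0.298% of a library at every stage. Merging other peaks over all libraries gave 299 kinesin regions, of which 209 (69.9%) were called in adult but no spermatogonial library, beside 68.0% of 110992 regions. In all 4 adult libraries and no spermatogonial one, 20 were called (6.69%, background 4.73%), and 46 (15.4%, background 17.9%) were called in spermatogonia alone. In both RS and no other library, 23 were called (7.69%, background 6.47%), and in both PS and no other, 17 (5.69%, background 5.42%). In a single library, 167 were called (55.9%, background 58.1%). These shares lay near the background.

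**Figure D2:**
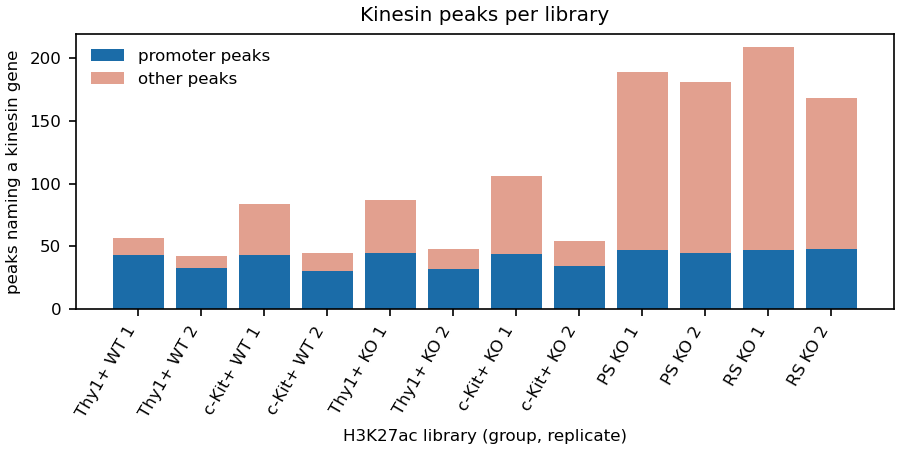
Number of peaks naming a kinesin gene in each library, split into promoter peaks (blue) and all other classes (pink), with the axis from 0. Promoter peaks stay between 30 and 48, while other peaks go from 9 to 62 in spermatogonia to 120 to 162 in adult cells.

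Kif5c, Kif1a and Kif21b had the most peaks outside promoters, with 85, 50 and 50 summed over the libraries. In adult libraries alone Kif3b led with 44, followed by Kif5c with 41, Kif21b with 38 and Kif1a and Kifc3 with 35 each, and 44 of the Kif5c peaks were spermatogonial. At Kif5c, a conventional kinesin heavy chain enriched in neurons, the promoter was called in 6 libraries at 3.73 to 6.08, but a region deep in the gene (chr2:49742983-49748195) was called in all 12 at 4.48 to 10.6. A neighbouring intronic region (chr2:49749762-49750541) was called in all 4 c-Kit+ libraries (4.56 and 6.82 in WT, 5.20 and 5.25 in KO) and all 4 adult libraries (3.81 to 4.33), but in none of the 4 Thy1+ libraries. At Kif1a, 2 regions upstream of the start that are also named for Agxt (chr1:93114688-93115947 and chr1:93117873-93119347) were called in all adult libraries at 3.20 to 9.00 and in no spermatogonial one. An intronic region there (chr1:93070736-93071574) was called in RS alone, at 8.61 and 11.9. Kif21b, a close relative of Kif21a, had its widest region in the gene body (chr1:136138109-136142960), called in the 4 spermatogonial replicate 1 libraries at 4.19 to 9.11 and in all adult libraries at 10.7 to 20.7. The regions unique to Kif1a in RS and to Kif5c in c-Kit+ and adult cells were picked after their values were seen.

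Levels were compared with limma over all regions called in every library of a comparison, as log2 fold enrichment centred on each library's median, so a difference is relative to the median region. Between WT and KO, no kinesin region passed an adjusted p of 0.05. In Thy1+ cells 0 of 28 passed (limma, 3 with an unadjusted p under 0.05: Kif3b, Kif7 and Kif16b), beside 0.00923% of 10835 regions. In c-Kit+ cells 0 of 29 passed (limma, 1 unadjusted: Kifc3), beside 0% of 11313. The largest genotype difference was at the Kif3b promoter in Thy1+ cells, with a log2 of -0.80 (SE 0.214, limma adjusted p = 0.584), where 8.10 and 4.48 in KO overlapped 7.86 and 6.64 in WT; without centring it was -0.26, since the median region was 0.54 log2 higher in KO. The Kif21a promoter, with 8.61 and 7.67 in KO above 4.72 and 4.22 in WT, differed by 0.33 centred (limma adjusted p = 0.982) and by 0.86 without centring (adjusted p = 0.559).

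Between c-Kit+ and Thy1+ spermatogonia, the promoter of Kif21a was the only kinesin region that passed. Kif21a is a kinesin-4 motor that restrains microtubule growth and is best known from axons of eye-movement nerves. In WT the promoter stood at 4.72 and 4.22 in the Thy1+ libraries, against 10.3 and 7.44 in the c-Kit+ libraries. That is a log2 difference of 1.02 (SE 0.233, limma adjusted p = 0.0253), and both c-Kit+ libraries lay above both Thy1+ libraries. It was 1 of 28 kinesin regions called, beside 0.216% of 10177 regions (0.167% higher, 0.0491% lower). The call was lost with quantile normalization (log2 0.92, limma adjusted p = 0.55), without centring (0.97, adjusted p = 0.723) and on leaving out any of the 4 libraries (0.88 to 1.03). In KO, where the Thy1+ libraries had 8.61 and 7.67 and the c-Kit+ ones 8.99 and 5.83, the values overlapped and the log2 difference was 0.33 (SE 0.239, limma adjusted p = 0.66) centred and -0.17 without centring, where the median region was 0.50 log2 lower in c-Kit+ cells (a shift of -0.50). No kinesin region of 31 passed there (limma, 6 with an unadjusted p under 0.05), beside 0% of 11134. The difference between the genotypes in this step, -0.69 (SE 0.322), had an adjusted p of 0.998 in a joint limma fit (unadjusted p = 0.0416) and did not pass. The stage comparisons in spermatogonia share libraries with the genotype comparisons.

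The Kif21a promoter was highest in PS and among the lowest in RS. Fold enrichment was 18.7 and 21.3 in PS (20.0 ± 1.87, SD, n = 2) and 3.91 and 4.33 in RS (4.12 ± 0.294). The log2 difference of -2.08 (SE 0.215, limma adjusted p = 0.00788) was the largest change among kinesin regions in this comparison, in either direction. The peak was also narrower, with 488 and 234 bp in RS against 2256 and 2493 bp in PS, and in RS it lay wholly downstream of the start listed at 91049948 and no longer touched the printed window. RS values were as low as those in Thy1+ WT, where summed widths were 550 and 431 bp.

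From c-Kit+ KO cells (8.99 and 5.83) to PS, the Kif21a promoter showed no overlap but a centred log2 difference of only 0.39 (SE 0.196, limma adjusted p = 0.154). Without centring that difference was 1.46 (limma adjusted p = 2.24e-06), because the median region itself was 1.08 log2 higher in PS. The fall from PS to RS passed under each scaling tried, at -2.08 centred, -2.11 with quantile normalization and -2.28 without centring. The fall was called in 3 of 4 fits that left a library out (-2.33 to -1.87), the exception being the fit without PS replicate 2, in which no region of 26558 passed; each such fit leaves PS or RS with 1 library, which is assumed to vary like the other group.

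Within the gene body, other Kif21a peaks also differed between PS and RS. In PS both libraries had intronic peaks about 8, 21 and 27 kb downstream of the start (in PS 1 with summits at 8390, 21231 and 27286 bp), with 5.72 and 9.06 at the middle site (chr15:91028419-91029406). None of these sites was called in RS. The middle site was also called in c-Kit+ WT 1 and in both c-Kit+ KO libraries, at 4.26 to 4.66, and in no Thy1+ library. A site with its summit 109211 bp downstream in RS 1, near the end of the gene, was called in both RS libraries (6.65 and 4.33) and in PS 2 (3.73). In 3 inputs a Kif21a peak lay at chr15:90943258 to 90943627, at a single PS 1 peak (3.43); the other sites overlapped no input peak.

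**Figure D3:**
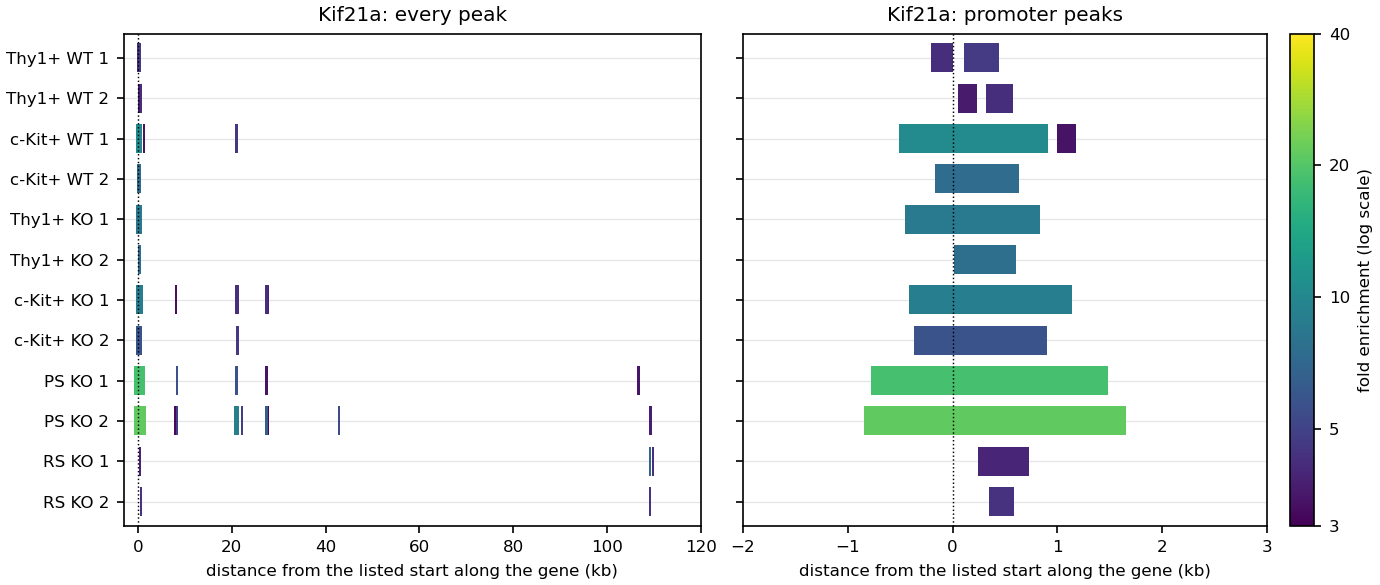
Peaks naming Kif21a in each library, by distance from the listed start along the gene (kb), over the whole gene (left) and at the promoter (right, drawn to scale); colour gives fold enrichment on a log scale, and narrow peaks on the left are widened to be visible. The PS promoter peaks span 2256 and 2493 bp at 18.7 and 21.3, and the RS peaks 488 and 234 bp at 3.91 and 4.33, beside intronic peaks at about 8, 21 and 27 kb in PS but not in RS.

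The number of Kif21a peaks did not separate the stages. It was 5 and 9 in PS, 3 and 2 in RS, 1 and 1 in Thy1+ KO and 6 and 2 in c-Kit+ KO. The adult mean of 4.75 ± 3.10 exceeded the spermatogonial 2.50 ± 2.38 (SD, n = 4) by 2.25, with an exact 2-sided permutation p of 0.343, where the design allows 0.0286 at best. When each library was limited to an equal number of its highest peaks, the sign turned (-0.500, exact permutation p = 0.629).

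From c-Kit+ KO spermatogonia to PS, 13 of 35 kinesin regions passed (limma), 8 higher and 5 lower, beside 31.9% of all 12501 regions (6.83% higher, 25.1% lower). The median change of the kinesin regions was 0.03, beside -0.17 over all regions. Spindle and cytokinesis motors supplied 5 of the 8 that rose and 1 of the 5 that fell, among 16 regions. The promoter of Kif3b rose most, by 0.94 (SE 0.207, limma adjusted p = 0.00432), followed by Kif24 (0.80). Next were Kif20a, a motor of the spindle midzone, at 0.74, the Kif27 upstream region (0.66) and, at 0.58 each, Kif20b and the depolymerase Kif2c. Kifc5b, a minus-end-directed motor, rose by 0.55. A region upstream of its near copy Kifc1 rose by 0.74; it is named also for BC051226, Daxx, Tapbp and Zbtb22 and reaches 37.9-fold enrichment in PS 2. Reads of near copies may be shared between such genes. The lower regions were 2 in the Kif5c introns (-1.45 and -1.02), the Kif7 promoter (-1.11) and regions upstream of Kif2c (-0.64) and Kif26a (-0.62).

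These lower calls depend on the scale. Without centring, 3 of the 5 turned positive (Kif5c at 0.06, Kif2c at 0.44 and Kif26a at 0.46), the other Kif5c region was -0.37 and Kif7 -0.03, none of them passed, and 30 kinesin regions passed, all higher. Over all regions the share of higher calls was 21.4% centred, 49.2% after quantile normalization and 98.9% uncentred. After quantile normalization a single kinesin region, the Kif3b promoter (1.16, limma adjusted p = 0.0402), still passed, and without c-Kit+ KO replicate 2, which had a lower background height than its partner, none did (0 of 58). Without either PS library 6 passed.

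From PS to RS, 21 of 76 kinesin regions passed (limma), 15 higher and 6 lower, beside 20.2% of 21329 regions (12.4% higher, 7.79% lower). The kinesin median was -0.02 and that of all regions -0.08. By class, of 38 kinesin promoters 1 rose and 3 fell, and of 38 other regions 14 rose and 3 fell. Over all regions these shares were 4.74% higher and 5.33% lower at promoters, and 21.5% higher and 10.7% lower elsewhere. The classes are not fully alike, since kinesin regions take the class of the peaks that name the kinesin. Over all regions, any promoter-class peak makes a region a promoter, so a kinesin region at a neighbour's promoter is counted differently. Among spindle and cytokinesis motors 7 of 27 regions rose and none fell, among transport motors 5 of 33 rose and 2 fell, and among cilium, flagellum and signalling motors 3 of 12 fell and none rose.

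The rising regions outside promoters included several of mitotic motors. An intronic region of Kif20b, a motor of late mitosis (chr19:34960973-34962519), had 5.34 and 3.20 in PS and 12.5 and 8.66 in RS, a log2 difference of 1.53 (SE 0.271, limma adjusted p = 0.00936). Upstream of Kif11, the bipolar spindle motor also called Eg5, a region (chr19:37367308-37369089) had 7.63 and 4.80 in PS and 12.9 and 15.1 in RS (1.40). For Kif15 the intronic region chr9:122980917-122982135 went from 4.19 and 4.27 to 11.3 and 8.11 (1.38). None of these 3 regions had a call in the 8 spermatogonial libraries, and the promoters of all 3 genes were called in every library. Both RS libraries lay above both PS libraries in each. Kif13b, a transport motor, gave 5.34 and 4.80 in PS and 11.3 and 10.8 in RS at an intronic region (1.32, limma adjusted p = 0.00788).

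At Kif2c an exonic region (chr4:117177378-117179304) had 7.24 and 4.27 in PS and 11.7 and 13.0 in RS (1.34, SE 0.287, limma adjusted p = 0.014), with no call in spermatogonia. It contains the whole RefSeq window printed above, downstream of the start at 117182624 that the peak tables list. At the listed start the Kif2c promoter had 14.9 and 19.2 in PS and 16.0 and 13.5 in RS, which overlapped. Kif2b, its relative, rose at its promoter by 1.18 (SE 0.239, limma adjusted p = 0.0121). Further rises were at 2 Kif3b introns (1.06 and 0.99), 2 Kif21b gene body regions (1.01 and 0.80), 3 regions outside the Kif4-ps promoter (1.20, 1.09 and 0.80) and 2 regions upstream of Kifc1 (0.74 and 0.68) that are also named for other genes.

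Kif3c, the alternative partner of Kif3a in kinesin-2, fell at its promoter from 10.3 and 10.1 to 4.30 and 5.41 (-0.89, SE 0.237, limma adjusted p = 0.0287). The Kif4-ps promoter fell by 0.87 on the log2 scale while its upstream regions rose. The others that fell were an intron of Kif26b (-0.95), a region upstream of Kif26a that is also named for Mir203 (-0.82) and an exon of Kif7 (-0.73). Kif26a and Kif26b are atypical kinesins that act in signalling rather than transport. Leaving out PS replicate 2 removed every one of the 21 calls; leaving out any other library gave 13 to 19 calls. The falls at the Kif3c and Kif4-ps promoters passed in 1 of those 4 fits each, and the changes at the Kif7 exon and both Kifc1 regions in 0. Without centring 11 were higher and 11 lower, and over all regions the share of higher calls was 61.5% centred, 57.7% after quantile normalization and 37.9% uncentred.

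**Figure D4:**
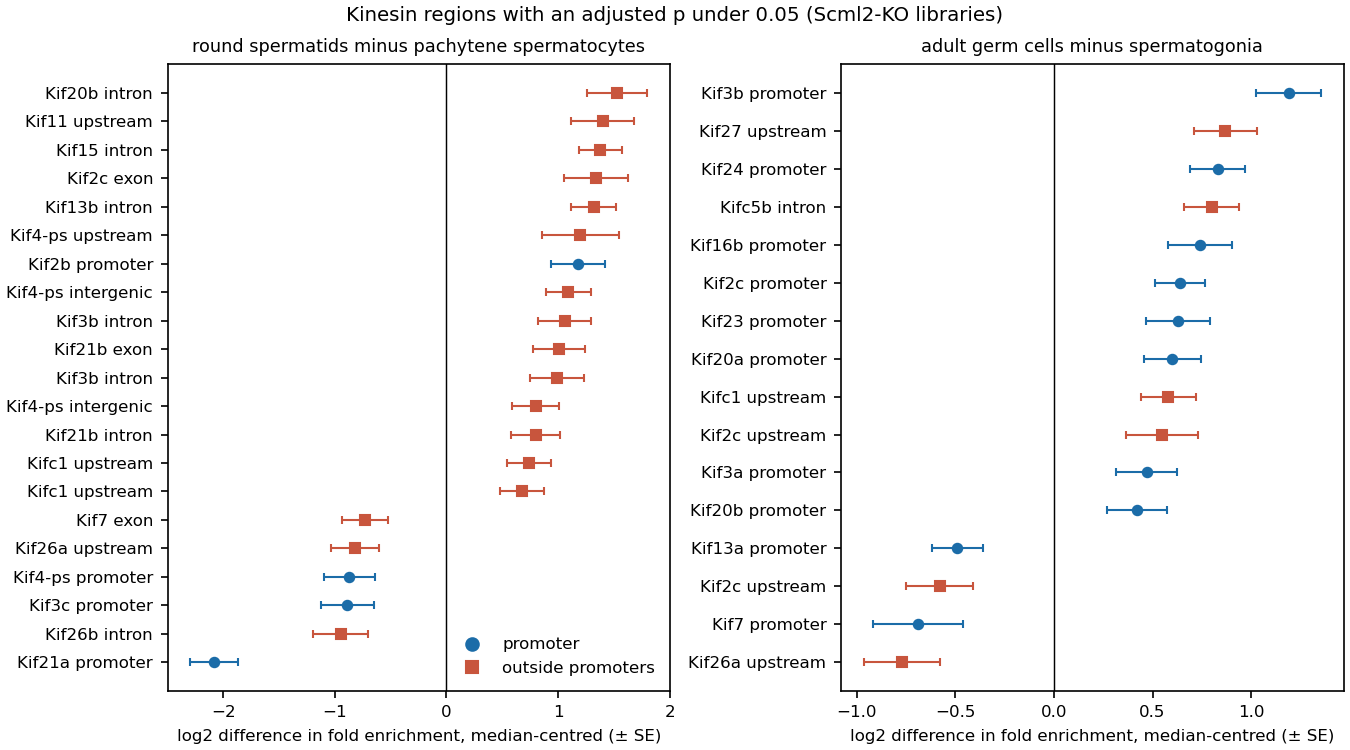
Log2 difference in fold enrichment (median-centred, ± SE) of each kinesin region with an adjusted p under 0.05, for RS minus PS (left) and adult minus spermatogonial KO cells (right); circles are promoters and squares other regions. On the left 14 of the 15 rising regions lie outside the promoter class of the named kinesin, and the Kif21a promoter stands lowest at -2.08. On the right the Kif3b promoter is highest at 1.19, and the 4 regions below 0 did not pass without centring.

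Across PS and RS together against both spermatogonial KO groups, 16 of 34 kinesin regions passed (limma), 12 higher and 4 lower, beside 32.3% of 10287 regions (9.85% higher, 22.4% lower). The kinesin median was 0.14, beside -0.12 over all regions. This comparison shares its libraries with those above. Kif3b, the motor subunit that with Kif3a drives intraflagellar transport, changed most. Its promoter had 8.10 and 4.48 in Thy1+ KO and 5.20 and 5.25 in c-Kit+ KO, against 19.1 and 23.5 in PS and 19.2 and 20.6 in RS. All 4 adult libraries lay above all 4 spermatogonial ones, and the WT spermatogonia (7.86, 6.64, 5.13 and 5.58) were in the same low range. The log2 difference was 1.19 (SE 0.164, limma adjusted p = 2.89e-04), 1.40 with quantile normalization and 1.87 without centring, and all 8 fits without a library called it. Kif3a, its partner, rose by 0.47 (SE 0.153, limma adjusted p = 0.032) with a slight overlap, since Thy1+ KO 1 at 14.7 exceeded RS 2 at 14.6.

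Kif3b also had adult peaks within the gene. Its summed promoter width was 246 to 863 bp in spermatogonia and 2237 to 3199 bp in adult cells. Promoter peaks were wider in adult libraries in general. The median length of all promoter peaks was 531 to 1126 bp in spermatogonial and 1015 to 1520 bp in adult libraries. Of 17 other Kif3b regions, 16 were called in adult cells and in no spermatogonial library, and 3 of those in all 4 adult libraries. PS and RS differed within the intron: regions centred 13228, 13972 and 14820 bp from the start (chr2:153304471-153304817, chr2:153305004-153305772 and chr2:153305848-153306624) were called in both PS libraries at 4.19 to 6.93 and in neither RS library. The region centred 6525 bp from the start was 8.77 and 6.40 in PS and 13.3 and 14.1 in RS, and rose as given above.

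**Figure D5:**
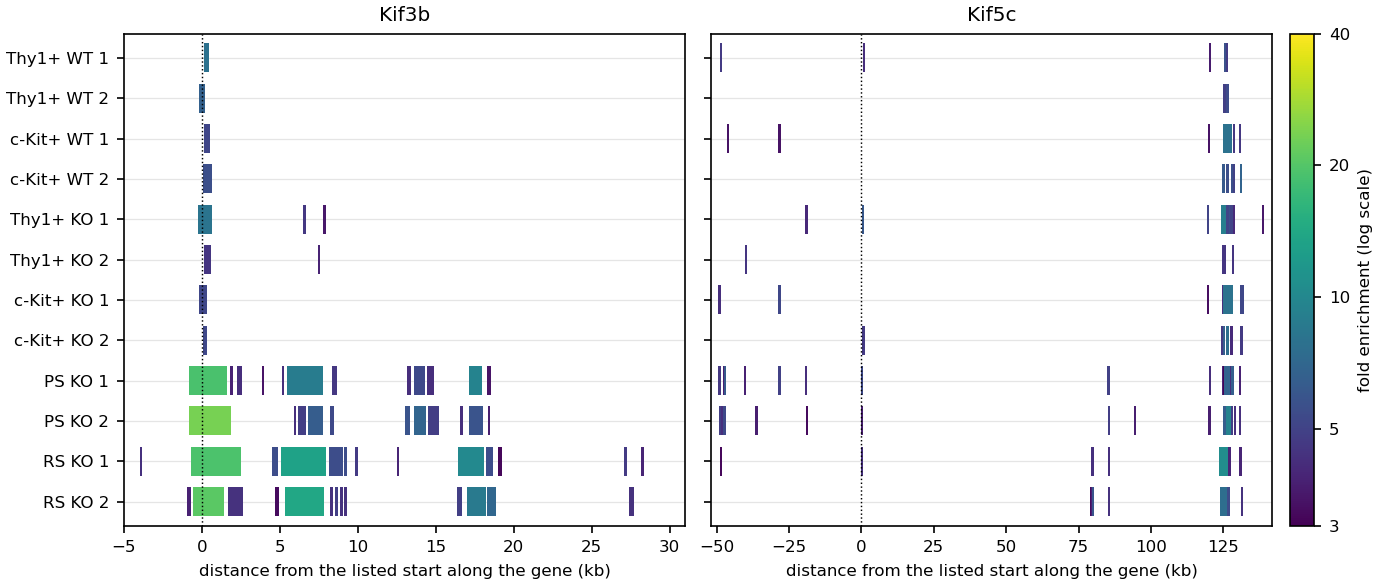
Peaks naming Kif3b (left) and Kif5c (right) in each library by distance from the listed start along the gene (kb), coloured by fold enrichment on a log scale, with narrow peaks widened to be visible. Kif3b has wider promoter peaks in adult cells (2237 to 3199 bp), where promoter peaks were wider in general, and a row of intronic peaks. Kif5c shows a region deep in the gene in all 12 libraries and little at its start.

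Kif24 rose by 0.83 (SE 0.14, limma adjusted p = 8.91e-04), from 14.2, 6.40, 8.99 and 5.83 in spermatogonia to 29.0, 24.5, 23.9 and 18.4 in adult cells, without overlap. It shares its promoter region with Nudt2, and the 2 genes cannot be told apart. The Kif27 upstream region rose by 0.87 (SE 0.158, limma adjusted p = 0.00149), from 6.15 to 9.11 to 16.8 to 22.7. Kif16b, a motor of early endosomes, rose by 0.74. The midzone motors Kif23 and Kif20a rose by 0.63 and 0.60, Kif20a sharing its promoter with Brd8 and overlapping between the groups (15.7 in RS 2, 16.7 in Thy1+ KO 1), and Kif20b by 0.42. At Kif2c the promoter rose by 0.64 and an upstream region by 0.55, while another upstream region was -0.58. A Kifc5b intronic region shared with Phf1 rose by 0.80, and the Kifc1 upstream region by 0.58. Leaving out a library left Kif3a called in 4 of 8 fits, Kif20b in 3 and the rising Kif2c upstream region in 2.

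The 4 lower regions were upstream of Kif26a (-0.77), the Kif7 promoter (-0.69), the Kif2c upstream region and the Kif13a promoter (-0.49), and all 4 overlapped between the groups. Without centring none passed, and they stood at -0.09, -0.02, 0.09 and 0.19, so the last 2 changed sign; the median region was 0.68 log2 higher in adult cells. All 19 kinesin regions that passed without centring were higher. The share of higher calls over all regions was 30.5% centred, 49.7% after quantile normalization and 98.4% uncentred. The Kif7 region also includes peaks of the upstream class.

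Of 29 partners of these motors (kinesin light chains, adaptors, dynein and dynactin subunits, and Cenpe, itself a kinesin whose symbol the naming rule does not match), 28 had a promoter peak, Klc3 being the exception, and 22 were called in every library, beside 58.9% of all genes with a promoter peak. In adult against spermatogonial KO cells 6 of 31 partner regions rose and 4 fell (limma), beside 9.85% and 22.4% of all regions. Hook1, an adaptor of the spermatid manchette, rose most, by 1.72 (SE 0.156, limma adjusted p = 3.57e-05), from 10.6, 4.48, 6.15 and 5.25 to 30.9, 40.5, 31.3 and 30.3. Dync2h1, the heavy chain of the dynein that returns cargo along the flagellum, rose by 0.68, and the light chains Klc2 and Klc4 by 0.61 and 0.54. From PS to RS 3 of 57 partner regions rose and 2 fell, beside 12.4% and 7.79% of all regions. Among them was a region outside the promoter of Kifap3, the accessory subunit of Kif3a and Kif3b, which rose by 1.40 (SE 0.309, limma adjusted p = 0.0155). From c-Kit+ KO cells to PS 5 of 35 rose, Hook1 by 1.56, and 4 fell, by up to 1.36 on the log2 scale at Bicd1, beside 6.83% and 25.1% of all regions.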

How the data were processed

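H3K27ac ChIPmentation peaks of 12 libraries and 16 inputs were used as deposited, each library being called by the authors on its own. Bowtie and MACS2 on mm10 are named, without versions, per the submitters' processing notes. Each peak has, as deposited, a pileup height (signal), −log10 p and −log10 q values and a fold enrichment over the library's background, a ratio with 1 value per summit; the highest summit was used here. The authors' annotation gave each peak's genes and class, and the largest gap between a promoter peak and a listed start was 1000 bp.

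Peaks were merged across the libraries of a comparison at an overlap of 1 bp. Regions called in every library were tested with limma 3.58.1 in R 4.3.3 on log2 fold enrichment, centred on each library's median, with Benjamini-Hochberg adjustment over all regions and a threshold of 0.05. The code was tested on simulated data. Libraries have 2 replicates per group, and read depth is not given in the sources used here, so no counting interval was computed. Promoter sequences and symbols came from RefSeq tables (GRCm38.p6).

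The alternatives were a replicate block, quantile normalization, no centring, filling of uncalled libraries, a −log10 q of at least 5, equal peak numbers, starts within 1000 bp, peaks naming 1 gene, regions without an input peak and leaving out each library; no centring and the input filter were added after seeing the data. Named genes were Kif21a, genes with a called region (up to 12 per direction), adult-only promoters, the 3 strongest constant promoters, the 3 genes with most other peaks, and genes without a promoter peak; others are given where stated. The members, lists and rules were chosen with earlier results of these data known. Replicate numbers were not treated as pairs in the main fits, and a batch shared by same-numbered libraries was not tested.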

Additional observations from a re-analysis of the deposited data

How the results depend on the processing

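The count of kinesin regions that differed between c-Kit+ and Thy1+ WT cells went from 1 to 0 with quantile normalization, without centring, with a −log10 q of at least 5, and in every fit that left out a library (0 to 0). From c-Kit+ KO cells to PS, 13 became 1 with quantile normalization, 30 without centring, 7 with the q limit and 0 to 12 on leaving out a library. From PS to RS, 21 became 63 when uncalled libraries were set to their lowest value, 9 with the q limit and 0 to 19 on leaving out a library. Between adult and spermatogonial KO cells, 16 became 31 with filling and 6 with the q limit, and leaving out a library gave 11 to 15. With filling, 63 of 152 kinesin regions passed from PS to RS, beside 21304 of all 49727. For adult against spermatogonial cells, 31 of 151 did, beside 9236 of 51348. With the q limit these were 9 of 46, beside 1982 of 14257, and 6 of 18, beside 2293 of 7486. From c-Kit+ KO cells to PS, 784 of all 12501 regions passed with quantile normalization and 8940 without centring. With the q limit 2013 of 8139 did. The 3 adult-only promoters became 1 with equal peak numbers, and the 21 constant promoters 11 with the q limit. The adult difference in Kif21a peak number, 2.25, became -0.500 with equal peak numbers and 0.833 to 3.42 on leaving out a library. In 2-group fits, leaving out a library leaves 1 in its group, assumed to vary like the other group. The cause was not tested, except that fewer peaks or libraries enter by construction under the q limit, equal peak numbers and leave-one-out.

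Same-numbered libraries deviated together by correlations of -0.0079 to 0.166 (3 of 12 over 0.1). These were taken after centring, and replicate 1 had the higher background height in every group. Whether same-numbered libraries share a batch was not tested. With the replicate block the counts were 1, 10, 22 and 15 for the comparisons above, 0 for both genotype comparisons and for c-Kit+ against Thy1+ in KO, and the Kif21a peak number had an exact permutation p of 0.444. With 2 libraries a group and no read depth, a missing peak is not absence of the mark.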
